A study of Mus musculus with 9 samples.

Results

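The genes described here are 10 genes of antigen-presenting cells, leukocytes and T cells, out of 38203 genes measured in mouse epidermis: Cd74, H2-Aa, H2-Ab1, H2-Eb1, Cd207, Ptprc, Tyrobp, Cd3e, Cd3g and Ctla4. They were looked up by gene symbol, each symbol had 1 entry in the table, and no expression value entered the choice of entries. The genes themselves were chosen with earlier results of these data known. RNA came from the epidermis of individual mouse embryos at E18.5, separated from trunk skin with trypsin, and poly(A) RNA was sequenced in 9 libraries. The values are FPKM, fragments scaled to the length of the transcript and to the number of mapped fragments, so levels can be set side by side between genes of different length. The comparisons between genotypes ask what happens in the epidermis when the splicing regulators Esrp1 and Esrp2 are lost.

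WT denotes embryos with both genes (2 libraries), KO embryos without Esrp1 and with wild-type Esrp2 (3 libraries), KH embryos without Esrp1 and heterozygous for Esrp2 (2 libraries), and DKO embryos without either gene (2 libraries). KO, KH and DKO therefore all lack Esrp1, and these 7 libraries are called Esrp1-null. All embryos were of a mixed C57BL6/129Sv background, back-crossed into C57BL6. The Esrp1 deletion was made in the germline with Zp3-Cre from a single targeted stem cell clone, and the Esrp2 allele replaced the gene with a reporter cassette. Every cell of the embryo carried the alleles, leukocytes included, so the design does not separate an effect in keratinocytes from one elsewhere. The text on RNA extraction gives the controls as lacking Esrp2, but the sample labels call them WT, and their Esrp2 level was 118 and 136 FPKM against at most 0.0843 FPKM in DKO. Esrp1, whose transcript keeps the exons outside the deletion, had 119 and 142 FPKM in WT and 18.2 to 55.1 FPKM in the Esrp1-null libraries.

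As background, MHC class II molecules carry peptides to the surface of antigen-presenting cells, where CD4+ T cells read them, and the invariant chain Cd74 escorts them through the cell. The epidermis holds its own leukocytes: Langerhans cells, which descend from myeloid precursors that enter the skin before birth and acquire MHC class II and langerin (Cd207) as they mature around and after birth, and dendritic epidermal T cells, which carry a gamma delta receptor with the CD3 chains. Ctla4 is an inhibitory receptor of T cells that competes with Cd28 for the ligands Cd80 and Cd86.

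Many class II genes share a promoter arrangement in which an X box lies upstream of a Y box, and these elements are bound by the complex that recruits Ciita, the class II transactivator. The 150 bases upstream of the annotated start of H2-Aa and of H2-Eb1 are shown because both windows hold the pair and both genes had their highest levels in the same library. They are from RefSeq (GRCm38.p6), 5′ to 3′ on the strand of the gene: chr17:34287824-34287973 on the minus strand for H2-Aa and chr17:34305717-34305866 on the plus strand for H2-Eb1. The first capitals mark GCAACT, a core of the X box, and the second mark CTGATTGG, the Y box.
H2-Aa: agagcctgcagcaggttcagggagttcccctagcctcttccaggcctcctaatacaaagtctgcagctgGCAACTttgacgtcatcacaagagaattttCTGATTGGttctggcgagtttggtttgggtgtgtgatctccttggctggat
H2-Eb1: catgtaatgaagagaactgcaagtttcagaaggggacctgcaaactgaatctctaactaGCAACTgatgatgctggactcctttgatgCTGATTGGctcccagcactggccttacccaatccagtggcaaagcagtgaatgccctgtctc
The boxes were 24 bases apart in H2-Aa and 23 bases apart in H2-Eb1, and the Y box began 51 and 62 bases before the start. Searched on both strands, CTGATTGG occurred in 4.10% and GCAACT in 10.9% of 32851 promoter windows of 300 bases (250 before and 50 after the start). Both motifs on the strand of the gene, GCAACT first and at most 40 bases between them, occurred in 5 windows (0.0152%), those of H2-Aa, H2-Eb1, H2-Eb2, Aldh4a1 and Narf. The letters searched for were taken from class II promoters, so their presence there is a description of sequence and not a finding of these data. Among other genes of class II presentation, the windows of H2-DMa, H2-DMb1, H2-DMb2 and H2-Ob held neither motif and that of H2-Oa held the Y box alone. The windows of Cd207, Cd3e, Cd3g, Ctla4 and Ptprc also held neither, and that of Cd74 is not described here. H2-Ab1 and Tyrobp were not in the promoter table.

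Several libraries stood apart. The FPKM values summed to between 713318 and 1130713 per library, highest in KO replicate 2 and DKO replicate 1. In the same 2 libraries the level of a gene relative to its mean fell with transcript length (Spearman's rho -0.33 and -0.27 across 12065 genes), against 0.02 to 0.23 in the other 7. KH replicate 2 was the highest library for 19 of 26 genes of a Langerhans and myeloid list and for 15 of 18 genes of a T cell receptor list. WT replicate 2 was the lowest library for 7 of the members, which lowers the WT mean they are compared with. The sexes were not balanced: Xist reached 76.2 to 180 FPKM in KO and 111 FPKM in the second WT library, but was 0.178 FPKM or less elsewhere.

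The MHC class II genes had their highest means in DKO, where Cd74 averaged 11.9 ± 6.93 FPKM (SD, n = 2) against 2.69 ± 1.96 (SD, n = 2) in WT, but 0 of 9 members tested were called, against 0.728% of all genes tested. In both DKO libraries Cd74, H2-Aa, H2-Ab1 and H2-Eb1 lay above both WT libraries. Ctla4 was the only member below WT in both DKO libraries, and the other members tested overlapped. Between DKO and WT, 27.8% of the 16897 genes tested had every DKO library above WT and 26.4% had every DKO library below, so 4 and 1 of 9 members are to be read against those shares. In bulk epidermis, fewer cells of a type and less RNA per cell cannot be told apart.

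Calls needed an adjusted p under 0.05 and a mean FPKM differing more than 2-fold. Between DKO and WT that held for 123 of 16897 genes and for no member. By the unadjusted p, 3 members were under 0.05 (Cd74, H2-Aa and H2-Eb1), against 13.8% of all genes. The median log2 difference of the 9 members was 0.84 and that of all genes 0.02, with 7 of 9 members and 52.9% of all genes positive. The same median was 0.45 in KO and 0.67 in KH, with 8 of 9 members positive in each, against 50.1% of all genes in each. The medians rested on single libraries: that of DKO was 0.31 without DKO replicate 1 and 0.40 without WT replicate 2, that of KO was 0.13 without KO replicate 2 and 0.26 without WT replicate 2, and that of KH was 0.019 without KH replicate 2, with 6 of 9 members positive. No member was called in either, where 0.0296% of genes were called in each, and 0 members had an unadjusted p under 0.05. These medians share the WT libraries and are not independent of each other. Between DKO and KO, 0.639% of genes were called and between DKO and KH 0.426%, in both cases no member, with member medians of 0.03 and -0.08. The moderated F-test for any difference among the 4 genotypes called 0.491% of genes and no member, the smallest unadjusted p being 0.0774 for H2-Eb1. These counts are from limma, and each was also 0 under every alternative setting run (18, or 17 for the F-test).

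**Figure D1:**
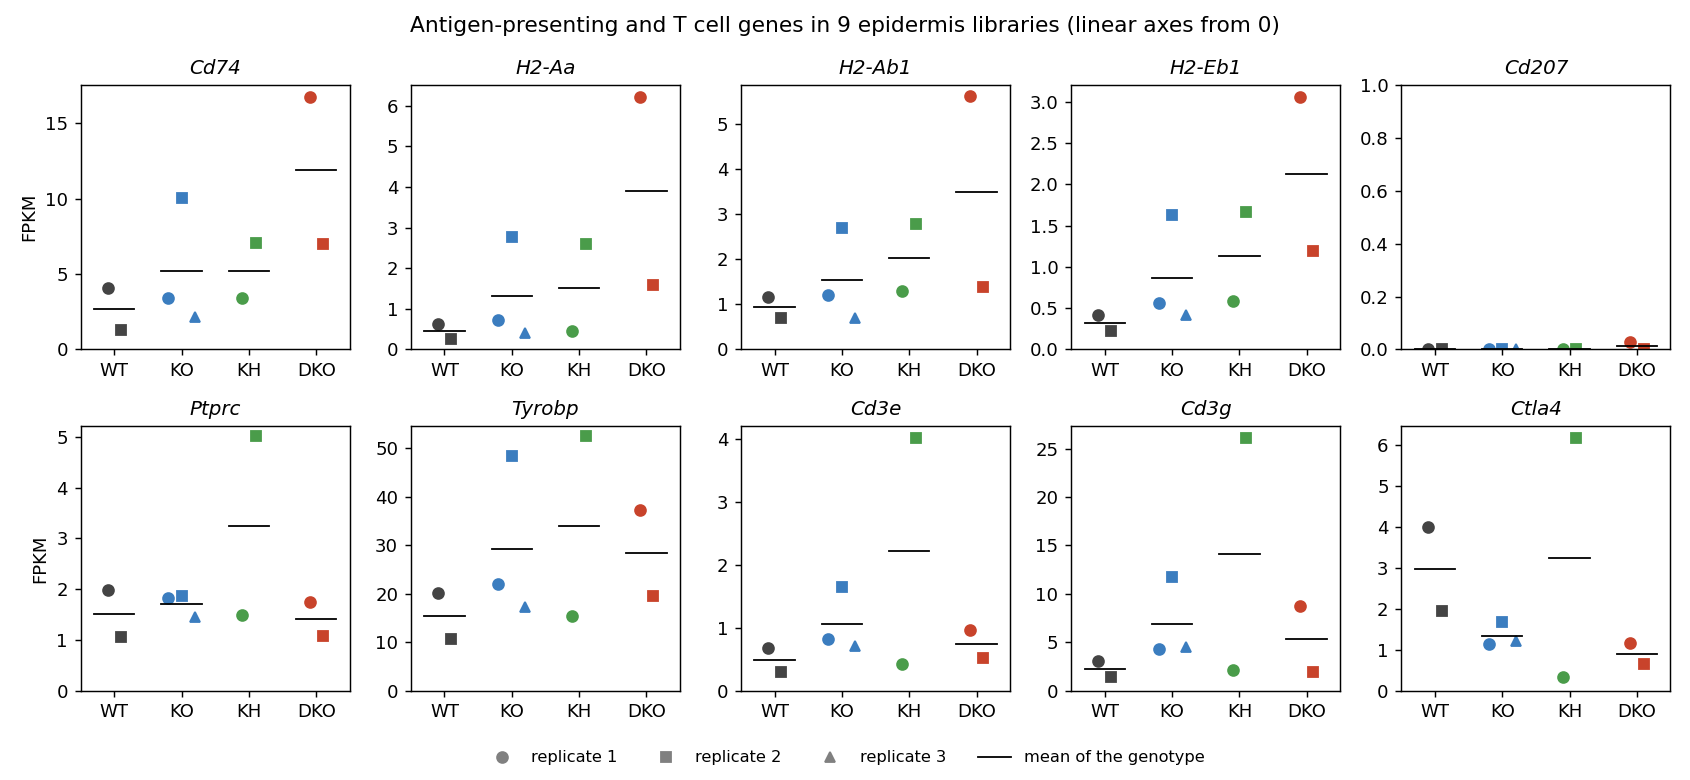
FPKM of the 10 members in each of the 9 libraries, by genotype on the horizontal axes, with a linear vertical axis from 0 in each panel. Points are libraries, symbols give the replicate number and the black line is the mean of the genotype. DKO replicate 1 is the highest library for the 4 MHC class II genes, KH replicate 2 is the highest for Ptprc, Tyrobp, Cd3e, Cd3g and Ctla4, and Cd207 is at or near 0 throughout.

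Cd74 (chromosome 18, plus strand) encodes the invariant chain. It had 4.08 and 1.31 FPKM for WT, 3.40, 10.1 and 2.18 for KO, 3.40 and 7.04 for KH, and 16.8 and 6.97 for DKO. Replicate 1 of DKO was the highest of all libraries, but the other DKO library lay below KO replicate 2 and KH replicate 2. On the log2(FPKM + 1) scale, which understates the change of genes with low values, DKO exceeded WT by 1.80 (SE 0.66, 95% confidence interval 0.29 to 3.30). The unadjusted p was 0.0244 and the adjusted p 0.288 (limma, Benjamini-Hochberg over 16897 genes). Without DKO replicate 1 the difference was 1.22, and without WT replicate 2 it was 1.23.

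H2-Aa encodes the alpha chain of the class II molecule I-A. It lies on the minus strand of chromosome 17, from 34282744 to 34287827 in mm10. Its level was 0.634 and 0.258 FPKM for WT, 0.720, 2.78 and 0.411 for KO, 0.452 and 2.59 for KH, and 6.22 and 1.58 for DKO. The mean of DKO was 8.74 times that of WT, the largest such ratio among the members, and most of it came from DKO replicate 1. DKO replicate 2 lay above WT but below KO replicate 2 and KH replicate 2. The difference from WT was 1.59 on the log2 scale (SE 0.62, adjusted p = 0.316 by limma with Benjamini-Hochberg adjustment) and fell to 0.85 without DKO replicate 1.

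H2-Ab1, on the plus strand of the same chromosome from 34263209 to 34269418, encodes the beta chain that pairs with H2-Aa. It had 1.17 and 0.697 FPKM for WT, 1.21, 2.69 and 0.692 for KO, 1.29 and 2.77 for KH, and 5.62 and 1.38 for DKO. Both DKO libraries were above both WT libraries, by a narrow margin in replicate 2. The difference was 1.05 on the log2 scale (SE 0.51, adjusted p = 0.409 by limma with Benjamini-Hochberg adjustment), and 0.31 without DKO replicate 1.

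H2-Eb1, the beta chain of I-E, lies beside them from 34305883 to 34316199 on the plus strand. An antisense gene, Gm20513, overlaps it. Its level was 0.414 and 0.222 FPKM for WT, 0.565, 1.63 and 0.411 for KO, 0.586 and 1.67 for KH, and 3.06 and 1.20 for DKO. Every KH and DKO library was above both WT libraries, and KO replicate 3 lay between them. H2-Eb1 had the smallest p of the members in the comparison of DKO with WT, with a log2 difference of 1.19 (SE 0.39, 95% confidence interval 0.30 to 2.07), an unadjusted p of 0.0144 and an adjusted p of 0.242 by limma with Benjamini-Hochberg adjustment. Without DKO replicate 1 the difference was 0.74. Over the 18 alternative settings its adjusted p ranged from 0.0733 to 0.876.

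The alpha and beta chains and the invariant chain varied together. Over the 9 libraries the 6 pairs of MHC class II members had Pearson correlations of log2(FPKM + 1) from 0.933 to 0.989, as a description of libraries that differ in genotype, scaling and length trend. Genes outside the list that followed Cd74 most closely among 12188 searched were Srrd, Ift43, Mrps34, Pnrc1 and Supv3l1, with correlations from 0.966 to 0.991. Among them, Mrps34 encodes a mitochondrial ribosomal protein and Ift43 a protein of transport in cilia. The most alike, Srrd, was also highest in DKO replicate 1 (20.3 FPKM) and next in KO replicate 2 (17.8 FPKM), the 2 libraries in which short transcripts were relatively high. The part of that trend in the class II levels was measured only by a correction of each library for transcript length, after which the differences between DKO and WT were 1.80 for Cd74, 1.56 for H2-Aa, 0.98 for H2-Ab1 and 1.17 for H2-Eb1, with adjusted p between 0.193 and 0.384 (limma, Benjamini-Hochberg).

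Against the Esrp1-null genotypes that keep an Esrp2 allele, the class II genes were also highest on average in DKO, with no test passed. DKO exceeded KO by 1.15 for Cd74, 1.04 for H2-Aa, 0.72 for H2-Ab1 and 0.73 for H2-Eb1 on the log2 scale, with adjusted p of 0.805 or more (limma, Benjamini-Hochberg). DKO exceeded KH by 1.00, 0.92, 0.43 and 0.54 for the same genes, with an adjusted p of 0.971 for each. The 95% confidence intervals of all 8 differences included 0, for example from -0.22 to 2.52 for Cd74 between DKO and KO. Without DKO replicate 1 the differences from KO were 0.57 for Cd74, 0.30 for H2-Aa, -0.014 for H2-Ab1 and 0.29 for H2-Eb1, and those from KH were 0.42, 0.18, -0.31 and 0.095. Without KH replicate 1, those from KH were 0.57, 0.27, 0.071 and 0.16.

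No other gene of class II presentation was called. Of 17 listed, members included, 14 passed the filter on low values (a mean above 0.1 FPKM in at least 1 genotype). In no comparison was any called, 3 had an unadjusted p under 0.05 between DKO and WT, all 3 of them members, and the median log2 difference was 0.33 against 0.02 over all genes tested. The median difference from WT was 0.32 in KO and 0.28 in KH, and the genes with a positive difference were 11 in DKO, 12 in KO and 13 in KH. The most abundant were Ifi30, a thiol reductase of the lysosome, at 126 to 374 FPKM, Ctss, the protease that trims the invariant chain, at 8.01 to 36.5 FPKM, and Lgmn, a lysosomal endopeptidase, at 9.28 to 21.0 FPKM. All 3 were highest in KH replicate 2. Of the 17 genes, 7 were highest in that library and 8 in DKO replicate 1, namely the 4 members with H2-DMa, H2-DMb1, H2-DMb2 and Ciita. Ciita was at most 0.0694 FPKM in any library and H2-Eb2 was listed at 0 in all 9.

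MHC class I presentation, which nearly every nucleated cell carries out, had a median log2 difference of 0.07 between DKO and WT over 13 genes tested and none called. Of these, 7 had a positive difference and 6 a negative one, and 2 had an unadjusted p under 0.05 by limma. Nlrc5, Tap1 and Tap2 were among those below WT in both DKO libraries. Nlrc5 had 1.88 and 1.53 FPKM in WT and 0.486 and 0.282 in DKO. Tap1 had 4.94 and 6.84 in WT and 3.68 and 3.51 in DKO, and Tap2 1.23 and 1.71 against 0.801 and 0.905. B2m, the light chain of class I, had 177 and 177 FPKM in WT and 456 and 199 in DKO, so that DKO replicate 1 was far above the rest and DKO replicate 2 was not. Calr and Pdia3, chaperones of class I assembly, were abundant in every library.

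Cd207, langerin, was listed at 0 FPKM in 8 of 9 libraries and had 0.0288 FPKM in DKO replicate 1. It did not pass the filter and was not tested. Cd207 is the defining marker of mature Langerhans cells, so the class II signal in these libraries cannot be assigned to such cells by it. Of the 26 genes of the Langerhans and myeloid list, 23 passed the filter, and Cd209a, a marker of other dendritic cells, was listed at 0 in all 9. Among the most abundant were C1qb (11.5 to 56.6 FPKM) and Tyrobp, both expressed by macrophages and their relatives. The macrophage receptor gene Csf1r was detected throughout, at 3.28 to 13.3 FPKM, as was its ligand Il34, at 42.0 to 107 FPKM. Between DKO and WT, 20 of 23 genes had a positive log2 difference with a median of 0.42, none was called, and 2 had an unadjusted p under 0.05, Cd68 upward (1.07) and Mrc1 downward (-0.50). The other Esrp1-null genotypes had as many positive genes or more, 20 with a median of 0.40 in KO and 21 with a median of 0.75 in KH.

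Tyrobp, also called DAP12, is an adaptor of activating receptors on myeloid and natural killer cells. It was the most abundant member, at 20.2 and 10.6 FPKM for WT, 22.0, 48.4 and 17.3 for KO, 15.5 and 52.5 for KH, and 37.3 and 19.5 for DKO. The libraries within KO, KH and DKO lay further apart than the means of these 3 genotypes, and DKO overlapped WT. Its log2 difference from WT was 0.84 (SE 0.65) in DKO, 0.81 (SE 0.59) in KO and 0.92 (SE 0.65) in KH, with adjusted p of 0.578, 0.853 and 0.980 (limma, Benjamini-Hochberg). It was 0.39 in DKO without DKO replicate 1, 0.39 in KO without KO replicate 2 and 0.069 in KH without KH replicate 2. Without WT replicate 2 it was 0.40, 0.37 and 0.48.

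Ptprc encodes CD45, the phosphatase on all nucleated blood cells. Its level was 1.97 and 1.06 FPKM for WT, 1.83, 1.87 and 1.44 for KO, 1.49 and 5.01 for KH, and 1.74 and 1.07 for DKO. Apart from KH replicate 2 the libraries lay within a narrow range, and WT and DKO covered nearly the same values. The DKO difference from WT was -0.05 on the log2 scale, with a 95% confidence interval from -0.93 to 0.83, which takes in differences of nearly 1 in either direction.

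Set against Tyrobp in the same library, 3 of the 4 class II genes were higher in both DKO libraries than in any other. This ratio was chosen after the values were seen and is given without a test. Cd74 over Tyrobp was 0.449 and 0.357 in DKO and 0.123 to 0.220 in the other 7 libraries. H2-Eb1 over Tyrobp was 0.082 and 0.061 in DKO and at most 0.038 in the others, and H2-Aa over Tyrobp was 0.167 and 0.081 against at most 0.0575. H2-Ab1 did not separate, since 0.070 in DKO replicate 2 lay below 0.083 in KH replicate 1. Of 12197 genes averaging at least 1 FPKM, 116 (0.951%) had both DKO libraries above the other 7 in their ratio to Tyrobp. Over Ptprc, Cd74 was again highest in DKO (9.61 and 6.51, against at most 5.38), where 7.40% of genes did the same, but H2-Aa was 1.48 in DKO replicate 2 and 1.49 in KO replicate 2.

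**Figure D2:**
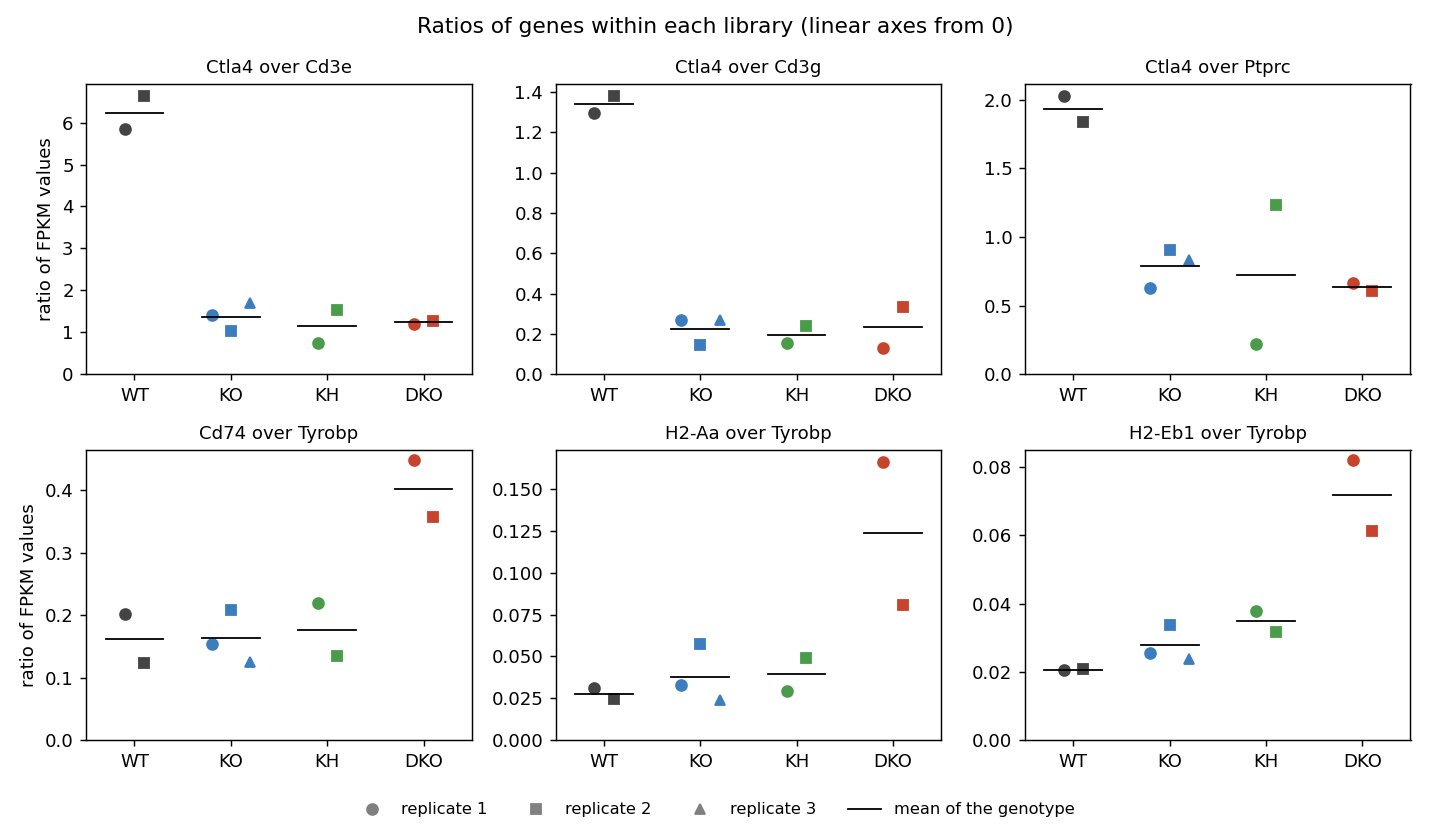
Ratios of 2 FPKM values within each library, by genotype, with linear axes from 0, where points are libraries and the black line is the mean of the genotype. Ctla4 over Cd3e is 5.85 and 6.64 in WT and 0.748 to 1.70 in the 7 Esrp1-null libraries, and Cd74 over Tyrobp is 0.449 and 0.357 in DKO against 0.123 to 0.220 elsewhere.

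Cd3e and Cd3g, the epsilon and gamma chains of the CD3 complex that transmits the T cell receptor signal, were highest in KH replicate 2. Cd3e (chromosome 9, minus strand, 44998743 to 45009590) had 0.685 and 0.293 FPKM for WT, 0.820, 1.65 and 0.709 for KO, 0.430 and 4.02 for KH, and 0.958 and 0.512 for DKO. Its neighbour Cd3g (44969572 to 44980431, same strand) had 3.08 and 1.41 FPKM for WT, 4.31, 11.8 and 4.48 for KO, 2.11 and 26.1 for KH, and 8.78 and 1.94 for DKO. In both genes the KH libraries held the highest value of all 9 and one of the 3 lowest. Gm48719 and Gm48720 overlap Cd3e.

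In KO, all 3 libraries lay above both WT libraries in Cd3e and Cd3g, 2 of 9 members where 12.6% of genes did so, and Ctla4 was below WT in all 3, where 12.1% of genes were. The log2 difference was 0.45 (SE 0.46, adjusted p = 0.861) for Cd3e and 1.20 (SE 0.88, adjusted p = 0.853) for Cd3g by limma with Benjamini-Hochberg adjustment. Without KO replicate 2 these were 0.26 and 0.78.

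In KH, H2-Ab1 and H2-Eb1 lay above WT in both libraries, where 15.3% of genes did so, and no member lay below, where 16.6% of genes did. Cd3g had the largest log2 difference, 1.55 (SE 0.97, adjusted p = 0.980 by limma with Benjamini-Hochberg adjustment). It came from 1 library: without KH replicate 2 the difference was -0.01 for Cd3g, -0.05 for Cd3e and 0.0082 for Ptprc. The H2-Aa difference was then 0.019.

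**Figure D3:**
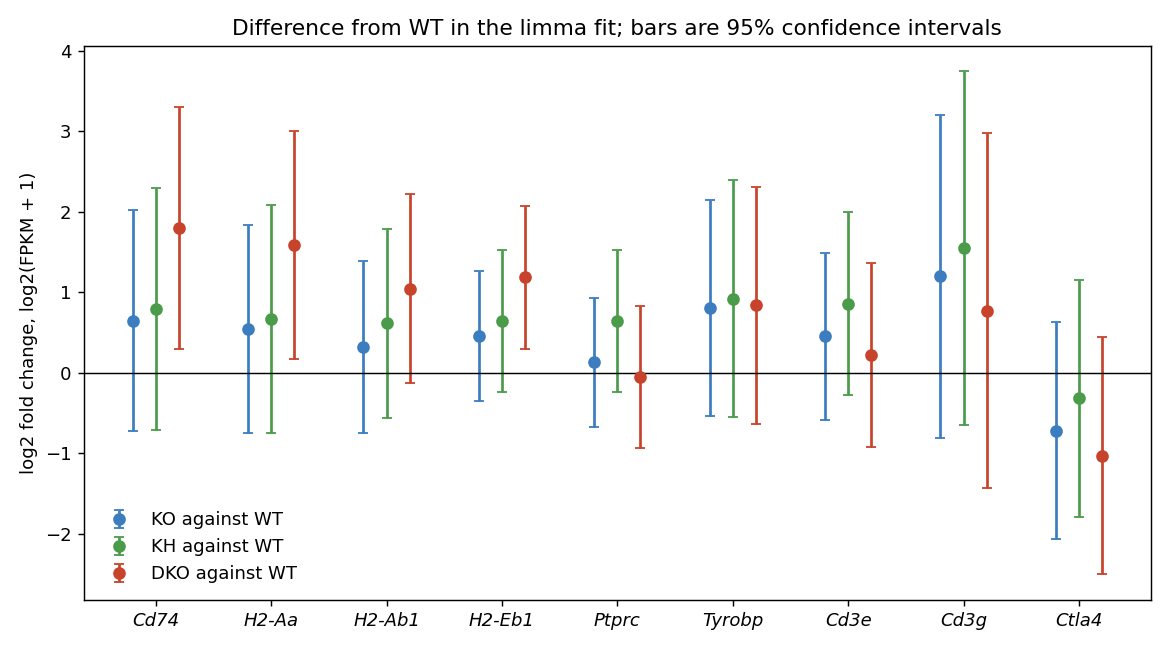
Difference of KO, KH and DKO from WT for the 9 members tested, on the log2(FPKM + 1) scale in the limma fit, with 95% confidence intervals as bars and 0 as the horizontal line. The 3 comparisons share the 2 WT libraries, and the intervals exclude 0 only for Cd74, H2-Aa and H2-Eb1 in DKO, before adjustment.

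The wider T cell lists were also highest in KH replicate 2. Of 18 genes of the T cell receptor list found in the table, 17 passed the filter and none was called, with a median log2 difference from WT of 0.21 in DKO, 0.39 in KO and 0.59 in KH. Their summed level was 21.4 and 12.7 FPKM for WT, 25.1 to 50.5 for KO, 21.9 and 99.6 for KH, and 34.0 and 19.5 for DKO. Thy1, a surface glycoprotein of T cells, had the highest mean of the list, at 2.54 to 16.0 FPKM. Cd5, an inhibitor of receptor signalling, had the smallest p between DKO and WT with 2.86 and 1.68 FPKM in WT and 5.92 and 5.08 in DKO, a log2 difference of 1.01 and an adjusted p of 0.141 (limma, Benjamini-Hochberg).

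All 15 listed genes of epidermal gamma delta T cells passed the filter and none was called, with a median log2 difference from WT of 0.16 in DKO, 0.34 in KO and 0.88 in KH. Tcrg-V5, the variable segment used by dendritic epidermal T cells, had 2.33 and 0.683 FPKM for WT, 1.24, 2.45 and 2.50 for KO, 1.89 and 15.5 for KH, and 3.11 and 0.379 for DKO. Xcl1, a chemokine these cells secrete, ran from 1.03 FPKM in WT replicate 2 to 27.4 FPKM in KH replicate 2. Cd4 and Cd8a, coreceptors of alpha beta T cells, were at most 0.208 and 0.167 FPKM. The genes most like Cd3e among 12188 searched were Cd3d, Klrd1, Nkg7, Cd160 and Ighm, most of them genes of T cells and other cytotoxic lymphocytes, with correlations from 0.978 to 0.987. Cd3e and Cd3g correlated with each other at 0.954 and with the class II genes at 0.482 to 0.693.

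**Figure D4:**
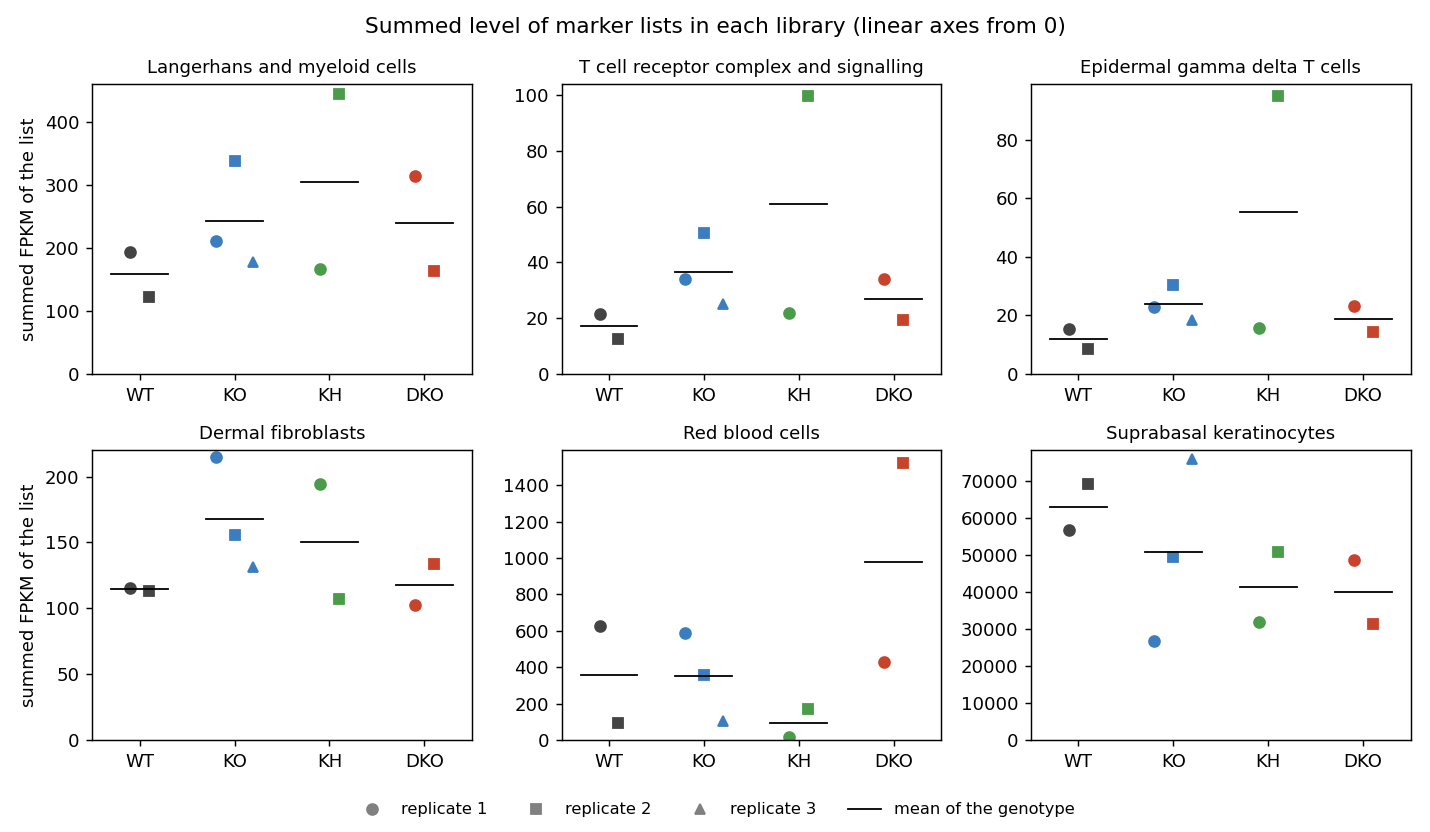
Summed FPKM of 6 marker lists in each library, by genotype, with linear axes from 0, where points are libraries and the black line is the mean of the genotype. KH replicate 2 is highest for the myeloid, T cell receptor and gamma delta T cell lists, DKO replicate 2 for red blood cells, at 1520 FPKM, and KO replicate 1 for dermal fibroblasts, at 215 FPKM.

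Ctla4 was lower in every KO and DKO library than in WT, unlike the CD3 genes. It had 4.004 and 1.94 FPKM for WT, 1.15, 1.69 and 1.20 for KO, 0.322 and 6.17 for KH, and 1.15 and 0.646 for DKO. The 2 KH libraries were the lowest and the highest of all 9. The log2 difference from WT was -1.03 in DKO (SE 0.65, 95% confidence interval -2.50 to 0.45, adjusted p = 0.501), -0.72 in KO (SE 0.59, adjusted p = 0.853) and -0.32 in KH (SE 0.65, adjusted p = 0.991) by limma with Benjamini-Hochberg adjustment. The KH difference was -1.54 without KH replicate 2 and 0.90 without KH replicate 1. When WT replicate 1 was left out, the differences were -0.65 in DKO, -0.33 in KO and 0.064 in KH.

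Set against the CD3 genes of the same library, Ctla4 separated WT from all 7 Esrp1-null libraries. Ctla4 over Cd3e was 5.85 and 6.64 in WT. In KO it was 1.401, 1.02 and 1.70, in KH 0.748 and 1.54, and in DKO 1.21 and 1.26. KH replicate 2, which had the highest Ctla4 of all, was no exception, as its Cd3e was also the highest of all.

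WT also separated over other denominators, by a smaller margin over Ptprc and Tyrobp. Ctla4 over Cd3g was 1.30 and 1.38 in WT and 0.132 to 0.332 in the others, Ctla4 over Ptprc was 2.03 and 1.84 against 0.216 to 1.23, and Ctla4 over Tyrobp was 0.198 and 0.183 against 0.021 to 0.118. The means of the CD3 genes were lowest in WT, though WT replicate 1 lay above KH replicate 1 and DKO replicate 2 in both genes. Many genes had higher ratios in WT: 7.49% of 12197 genes separated in the same direction over Cd3e, 8.77% over Cd3g, 1.30% over Ptprc and 7.40% over Tyrobp. At a gap of at least 3-fold between the lower WT library and the highest of the other 7, 5 genes (0.041%) did so over Cd3e and 15 (0.123%) over Cd3g, Ctla4 among them in both. Over Ptprc 3 genes (0.0246%) and over Tyrobp 5 genes (0.041%) did so, and Ctla4 was among them in neither. The ratios were looked at after the values were seen, and the 3-fold gap was set with them in view. Neither carries a test, and the shares do not measure how rare such a pattern is.

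The Ctla4 value covers more than the coding transcripts. The table gives the gene from 60887000 to 60915832 on the plus strand of chromosome 1 (mm10). In GENCODE M21 the coding transcripts begin at 60909025, and a non-coding processed transcript begins at 60887000. The interval also overlaps the pseudogene Rpl18-ps1 on the same strand. One FPKM value was given for the gene, so these transcripts cannot be told apart here, and the share of each in the WT and Esrp1-null values was not tested.

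The partners of Ctla4 were low. Of 14 costimulation and checkpoint genes 9 passed the filter and none was called, with a median log2 difference between DKO and WT of 0.02. Cd28 was at most 0.117 FPKM, Foxp3 and Tigit were listed at 0 in all 9 libraries, and Icosl and Cd86, ligands on presenting cells, ran from 0.789 to 1.94 and from 0.344 to 1.29 FPKM. Cd80, also a Ctla4 ligand, had 0.210 and 0.169 FPKM in WT and 0.332 and 0.685 in DKO, above all other libraries. It was the only gene of this list with an unadjusted p under 0.05 between DKO and WT, where its log2 difference was 0.33 with an adjusted p of 0.284 by limma with Benjamini-Hochberg adjustment. Over the 9 libraries Ctla4 correlated with the CD3 genes at 0.569 and 0.678 and with the class II genes at 0.048 to 0.143.

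Among the signals that draw leukocytes to the epidermis and keep them there, 1 gene differed. Ccl20, a chemokine of epithelial cells whose receptor is Ccr6, had 0.752 and 0.276 FPKM for WT, 0.119, 0.438 and 0.143 for KO, 0.219 and 0.338 for KH, and 48.1 and 38.8 for DKO. Both DKO libraries lay far above every other library, and it was the only gene of the list called. The log2 difference was 4.89 from WT (SE 0.23, adjusted p = 3.5e-05), 5.17 from KO and 5.11 from KH by limma with Benjamini-Hochberg adjustment. Ccr6 itself was at most 0.0334 FPKM in any library. Cxcl14, Cdh1 and Il34, the 3 most abundant genes of this list, were not called. Over the 11 of 15 listed genes that passed the filter the median log2 difference from WT was 0.39 in DKO, 0.14 in KO and 0.19 in KH.

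Markers of other cells that an epidermal preparation can hold were mostly low. Of 5 B cell genes, 6 mast cell genes, 7 neutrophil genes and 5 natural killer cell genes, the summed levels were 0.993 to 2.22, 0.124 to 1.33, 0.0445 to 0.795 and at most 0.120 FPKM over the 9 libraries, with Fcer1a, Ms4a2, Ly6g, Mpo, Elane, Klra4 and Klra8 listed at 0 in every one. The neutrophil sum was highest in the DKO libraries, at 0.795 and 0.675 FPKM, against 0.250 and 0.0445 in WT and at most 0.536 elsewhere. Of its 2 genes tested none was called, and Cxcr2, a chemokine receptor, had 0.273 and 0.249 FPKM in DKO and at most 0.0897 elsewhere, with a log2 difference from WT of 0.25 and an adjusted p of 0.199 (limma, Benjamini-Hochberg). Endothelial genes summed to at most 0.503 FPKM. The 6 red blood cell genes ran from 15.3 FPKM in KH replicate 1 to 1520 FPKM in DKO replicate 2. The 7 dermal fibroblast genes summed to 115 and 113 FPKM for WT, 132 to 215 for KO, 194 and 107 for KH, and 102 and 133 for DKO, mostly from Dcn and Vim, and 5 melanocyte genes to 46.6 and 42.4 for WT, 66.4 to 80.5 for KO, 148 and 55.9 for KH, and 93.1 and 204 for DKO. Krt10 and Krt1, keratins of the suprabasal layers, were abundant in all libraries, from 10310 to 35425 FPKM, as the labelled tissue would have. The part of cell makeup, of the length trend beyond the correction above and of sex in the member levels was not tested.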

How the data were processed

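Epidermal RNA from 9 libraries of 4 genotypes was grouped as the labels give it. Paired reads had been mapped to mm10 by the authors, using TopHat 1.4.1, and they deposited one FPKM value per gene and library, estimated with Cuffdiff 2.2.0. The deposited FPKM values hold no counts, so read depth is unknown here and no counting interval is given. An FPKM of 0 is reported as listed at 0. No pooled column was used.

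Genes with a mean above 0.1 FPKM in at least 1 genotype (16897 of 38203) were analysed as log2(FPKM + 1) in one limma 3.58.1 fit (R 4.3.3) of all 9 libraries, with an intensity trend and no covariate. P-values were adjusted by the Benjamini-Hochberg method over all genes tested, with calls at an adjusted p under 0.05 and a mean FPKM differing more than 2-fold. Of the 10 members 9 passed the filter. Embryos were the replicates. Calls were tested on simulated data. Tables and plots used Python 3.11.15, pandas 2.3.3, numpy 2.4.6 and matplotlib 3.10.9.

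The members, 19 gene lists, tests and named genes (the members, the 3 most abundant and the called genes of each list, and the genes most like Cd74 and Cd3e) were chosen with earlier results of these data known. Any further gene was picked with its values in view. One gene that the naming rule covers is not reported here. Of 190 list genes 189 were found, and Trdc was not analysed here. Trdv4, Tcrg-V5 and class II genes have near-identical relatives, and their FPKM is uncertain to that extent. Promoters were from RefSeq GRCm38.p6 and gene models from GENCODE M21. Alternatives were another pseudocount (0.1), 2 other filters (none, and a mean of 1 FPKM), only the genotypes compared, TPM and median ratio scaling, library weights, a replicate block, each library left out, and a correction for transcript length that was added after the data were seen. Replicate numbers are not known to pair the libraries. They are those of the sample titles, and the deposited columns are numbered differently. Correlations of same-numbered libraries ran from -0.60 to 0.49. With 2 libraries in a genotype the deviations from the mean mirror each other, so these correlations cannot show pairing or its absence. The paper gives a different cross for each of KO, KH and DKO, so cross and litter cannot be told apart from genotype.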

Additional observations from a re-analysis of the deposited data

How the results depend on the processing

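The count of members called was 0 in all 6 comparisons under every alternative. Of 810 log2 differences of single members 785 kept their direction and their side of the threshold, and 25 changed direction, none of them past it. All 153 F-test p-values of single members stayed on their side. The cause was not tested. Ptprc between DKO and WT became 0.11 (log2) after the correction for transcript length. Tyrobp between DKO and KO became -0.0071 after rescaling to TPM, -0.0057 with library weights and -0.26 with the replicate number as a block. The block changed no call, and its numbers are not shown to pair embryos.

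Leaving out 1 library at a time moved the log2 difference from -0.32 to 0.21 for Ptprc and from -0.092 to 1.64 for Cd3g between DKO and WT, and from -0.14 to 0.40 for Ptprc between KO and WT. Between KH and WT it ran from -0.045 to 1.77 for Cd3e, -0.015 to 3.11 for Cd3g and -1.54 to 0.90 for Ctla4. Between DKO and KO it ran from -0.014 to 1.46 for H2-Ab1, -0.39 to 0.019 for Ptprc, -0.42 to 0.48 for Tyrobp and -1.29 to 0.44 for Cd3g. Between DKO and KH it ran from -0.31 to 1.17 for H2-Ab1, -0.93 to 0.77 for Tyrobp, -1.54 to 0.27 for Cd3e, -2.34 to 0.79 for Cd3g and -1.93 to 0.51 for Ctla4. Where 1 library of a genotype was left, its spread was taken from the other genotypes. The differences of Cd74, H2-Aa, H2-Ab1 and H2-Eb1 between DKO and WT were positive under all 18 alternatives, and that of Ctla4 was negative.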
